A study of Drosophila melanogaster with 4 samples.

Results

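Peaks of Deformed binding that lie in small groups on the chromosome arms of Drosophila melanogaster are described here. Members were chosen by the positions of the called peaks. Each lies on 2L, 2R, 3L, 3R, X or 4 and has another peak midpoint within 5000 bp. None belongs to a run, which is a chain of 5 or more peaks separated by gaps of at most 2000 bp. A block of 16 mostly very wide peaks on 2L, from base 21416353 to base 21543676, was left out. The rule found 825 members, which is 31.4% of the 2625 arm peaks and 10.7% of the 7683 peaks in the whole list. The other arm peaks were 829 isolated peaks, with no other midpoint within 5000 bp, 955 run peaks and the peaks of that block.

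The study sequenced chromatin of embryos labelled 0 to 8 h, in 2 libraries after GFP immunoprecipitation and 2 of input DNA. Per the labels, all 4 libraries came from the strain Dfd-GFP-Pacman, whose genotype is PBac{y[+]-attP-3B}VK00037, and the sex of the embryos was unknown. The transgene is the Dfd genomic coding region in which GFP takes the place of the stop codon, so tagged protein was measured, and the antibody was the rabbit polyclonal anti-GFP ab290. The extraction protocol in the labels names another stock and a window of 8 to 16 h, which does not match the labelled stage. The deposited list gives each peak 1 position and 1 score, tied to no single library, so replicates could not be compared and read depth is unknown.

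Deformed is a Hox transcription factor that acts in the embryonic head, where it gives the mandibular and maxillary segments their identity. Like other Hox proteins it binds short AT-rich sequences through its homeodomain, often together with the cofactors Extradenticle and Homothorax. It maintains its own transcription through autoregulatory enhancers. Developmental enhancers in flies commonly hold several binding sites, and a regulated gene often has several enhancers along its locus. No release 5 annotation was used here, so peaks are named by position and not by gene, and no peak sequence is shown.

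Most members were low peaks, and a minority were among the highest of the list. Scores, read as −log10 p of the peak caller, were 12.84 at the median (95% order-statistic interval 12.25 to 13.48) for members, with quartiles of 10.01 and 23.19. The median of isolated peaks was 24.87 (interval 21.92 to 27.97), with quartiles of 13.7 and 70.19. That of run peaks was 13.03 (interval 12.68 to 13.32), with quartiles of 10.6 and 16.16. The median of the members thus lay beside that of run peaks, while their upper quartile lay between the other classes. Scores of members ran from 5.77, on X at bases 2743986 to 2744201, to 678.18, on 2R at bases 15993781 to 15994412. A score under 10 was found for 205 members (24.8%), against 67 isolated peaks (8.08%) and 186 run peaks (19.5%). Scores were not used to choose members, but peaks of 1 group share a locus and are not independent, so these differences were not tested. Intervals cover the variation among the peaks of this list only.

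**Figure D1:**
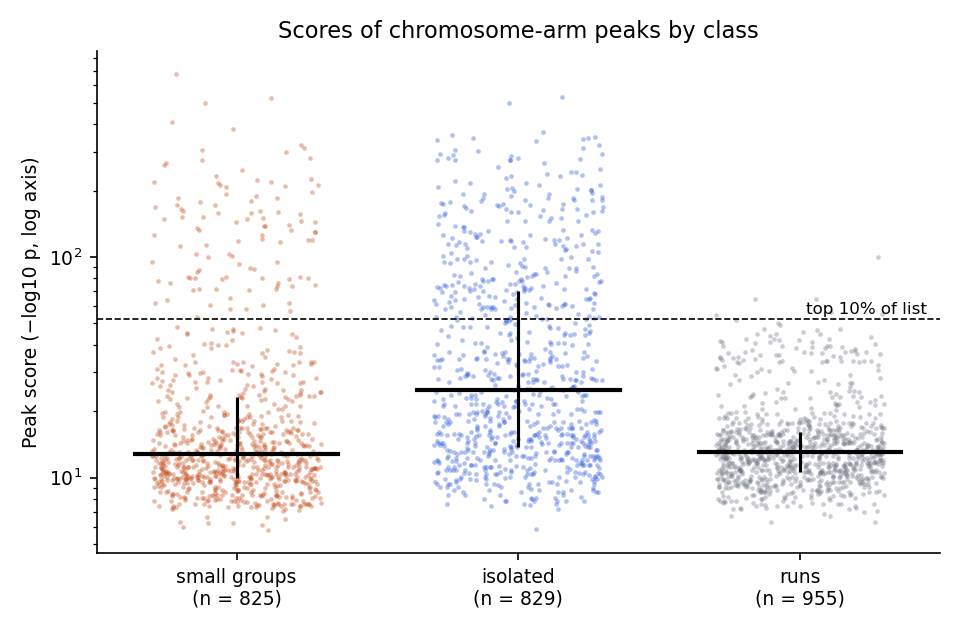
Score of every arm peak (−log10 p, log axis) in small groups, in isolation and in runs; thick bars are medians, thin bars quartiles, and the dashed line marks the top 10% of the list. Small groups share the dense low band of the runs, with a median of 12.84 against 13.03. Their scores reach 678.18, and those of isolated peaks 530.34. The top 10% holds 13.0% of small-group peaks and 32.3% of isolated peaks.

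High-scoring peaks are taken here as the top 10% of the whole list, which are the 770 peaks (10.0%) that scored 52.26 or more. Of the members, 107 were high-scoring (13.0%, exact 95% interval 10.8 to 15.5%). The share over all arm peaks was 15.0% (395 of 2625), so the members lay near that background. The share was 32.3% for isolated peaks (268 of 829) and 0.628% for run peaks (6 of 955). The 107 high-scoring members had a median score of 133.12 (interval 113.08 to 151.3), against 106.96 for the 268 high-scoring isolated peaks (interval 93.52 to 117.66). The other 718 members had a median of 11.94 (interval 11.45 to 12.25), against 15.84 for the other 561 isolated peaks (interval 15.22 to 16.8). The intervals of the high-scoring peaks overlapped, and those of the others did not. Peaks of 1 group are not independent, so neither difference was tested.

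An enrichment ratio was inferred for the 312 members (37.8%) whose score equals, to 2 decimals, a Poisson tail at the list's most common background rate of 80.06. The inferred pileup of high-scoring members of this kind, 41 peaks, was 4.42 times that rate at the median (quartiles 3.78 and 5.02). That of the other 271 was 1.94 times the rate (quartiles 1.79 and 2.12). Unmatched members can share the rate, so these ratios hold for matched peaks only. The unit and the rate are inferred from the values and are not stated by the authors.

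Called widths of members had a median of 361 bp (interval 341 to 385 bp, quartiles 260 and 561 bp). The median was 404 bp for isolated peaks (interval 390 to 426 bp) and 418 bp for run peaks (interval 398 to 440 bp). High-scoring members were 742 bp wide at the median and the other members 328 bp. Score and width both come from the peak caller. The widest member, on 2L at bases 29 to 5262, measured 5234 bp and scored 63.87. Its partner at bases 5385 to 5933 scored 15.53, and the pair begins at the first bases of the arm's sequence. At the other extreme, 17 members had the smallest width of 201 bp, among them the peak on 2R at bases 1139394 to 1139594, which scored 9.56.

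The members formed 311 groups of at least 2, linked wherever consecutive members had midpoints within 5000 bp. Pairs made up 173 of the groups (55.6%, exact interval 49.9 to 61.2%) and held 346 members. There were 92 groups of 3, 36 of 4 and 10 of 5 or more. The rule leaves out runs and so limits group size, which makes these shares a description. A further 2 members had only a run peak as close neighbour. One was on 2L at bases 22418780 to 22419167 and scored 9.31, and the other, on X at bases 3398169 to 3398816, scored 62.05. Groups had a median length of 2957 bp (quartiles 1832 and 3998 bp), of which peaks covered a median of 42.4% (quartiles 28.3 and 61.1%).

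The score limit of the top 10% divides the groups, so the scores on its sides are a description. No high-scoring member was present in 232 groups (74.6%), which held 627 members. The highest score of such a group had a median of 14.46 and quartiles of 11.69 and 23.08. At least 1 high-scoring member was present in 79 groups (25.4%), where the highest score had a median of 139.33 and quartiles of 88.98 and 199.82. Among these 79 groups, 24 held 2 or more high-scoring members and 55 held exactly 1. The share of high-scoring members did not follow group size in one direction. It was 73 of 346 in pairs (21.1%, interval 16.9 to 25.8%), 19 of 276 in groups of 3, 6 of 144 in groups of 4 and 8 of 57 in groups of 5 or more (14.0%, interval 6.26 to 25.8%). Of those 8, 4 lay in 1 group of 5 on 2R, so the last share rests largely on 1 locus.

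**Figure D2:**
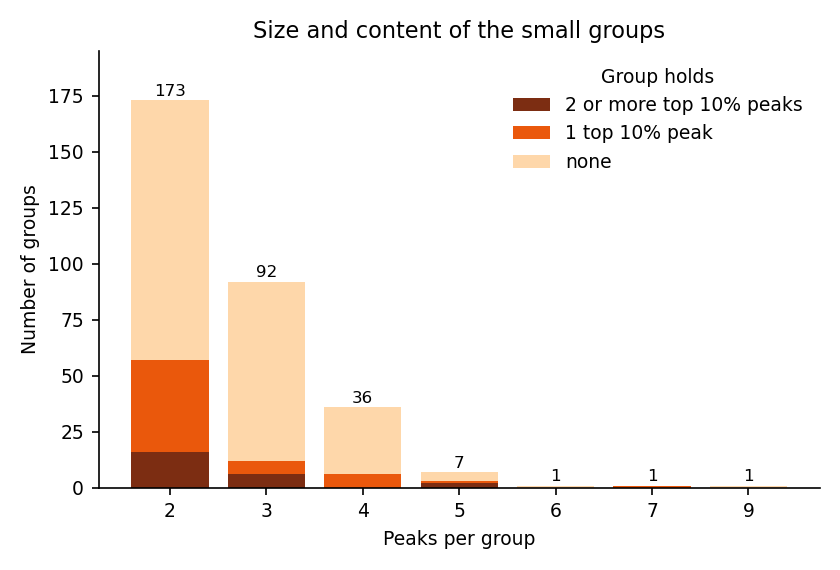
Number of groups of each size (peaks per group), with colours for the number of high-scoring (top 10%) peaks the group holds. Of the 173 pairs, 116 held none, 41 held 1 and 16 held 2; of the 92 groups of 3, 80 held none.

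Members were also counted by chains whose gaps were at most 2000 bp. High-scoring peaks were 60 of 330 members in chains of 2 (18.2%, interval 14.2 to 22.8%). The count was 10 of 207 in chains of 3 (4.83%, interval 2.34 to 8.70%) and 2 of 120 in chains of 4 (1.67%, interval 0.202 to 5.89%). In runs of 5 or 6 peaks it was 4 of 149 (2.68%, interval 0.736 to 6.73%). Median scores were 14.6, 11.97 and 11.81 in chains of 2, 3 and 4, and 12.6 in runs of 5 or 6. Peaks of 1 chain are not independent, so the overlap of these intervals is no test. Counted by chain, a high-scoring peak was present in 49 of 165 chains of 2 (29.7%). It was present in 6 of 69 chains of 3 (8.70%), 2 of 30 chains of 4 (6.67%) and 4 of all 113 runs (3.54%). The highest score of a chain did not fall in the same order. Its median was 23.01, 15.4 and 15.3 in chains of 2, 3 and 4, and 33.83 in runs, which have more peaks each. Another 168 members lay more than 2000 bp, edge to edge, from any other peak; 35 of them were high-scoring (20.8%, interval 15.0 to 27.8%).

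The 512 distances between midpoints of consecutive members had a median of 1286 bp (quartiles 736 and 2337 bp) and ran from 274 to 4963 bp. Gaps between peak edges had a median of 760 bp, the smallest was 50 bp, and 393 of them (76.8%) were at most 2000 bp. In bins of 100 bp the fullest held 43 distances between 500 and 600 bp, and 40 fell between 700 and 800 bp. From 900 bp upward no bin held more than 23. The rule itself caps the distance at 5000 bp and leaves out longer chains of close peaks, so the closeness of members is no finding. The lower end is limited by the smallest called width of 201 bp.

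High scores went with wider spacing. Of the 71 members whose nearest midpoint lay within 500 bp, 1 was high-scoring (1.41%, interval 0.0357 to 7.60%). The share was 13 of 291 (4.47%, interval 2.40 to 7.52%) between 500 and 1000 bp, and 41 of 229 (17.9%, interval 13.2 to 23.5%) between 1000 and 2000 bp. It was 20 of 133 (15.0%, interval 9.43 to 22.3%) between 2000 and 3000 bp and 15 of 60 (25%, interval 14.7 to 37.9%) between 3000 and 4000 bp. Between 4000 and 5000 bp it reached 17 of 41 (41.5%, interval 26.3 to 57.9%). Isolated peaks with a neighbour between 5000 and 10000 bp away had a share of 57 in 155 (36.8%, interval 29.2 to 44.9%), which overlaps the interval of the most widely spaced members. Beyond 50000 bp the share of isolated peaks was 80 of 274 (29.2%).

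**Figure D3:**
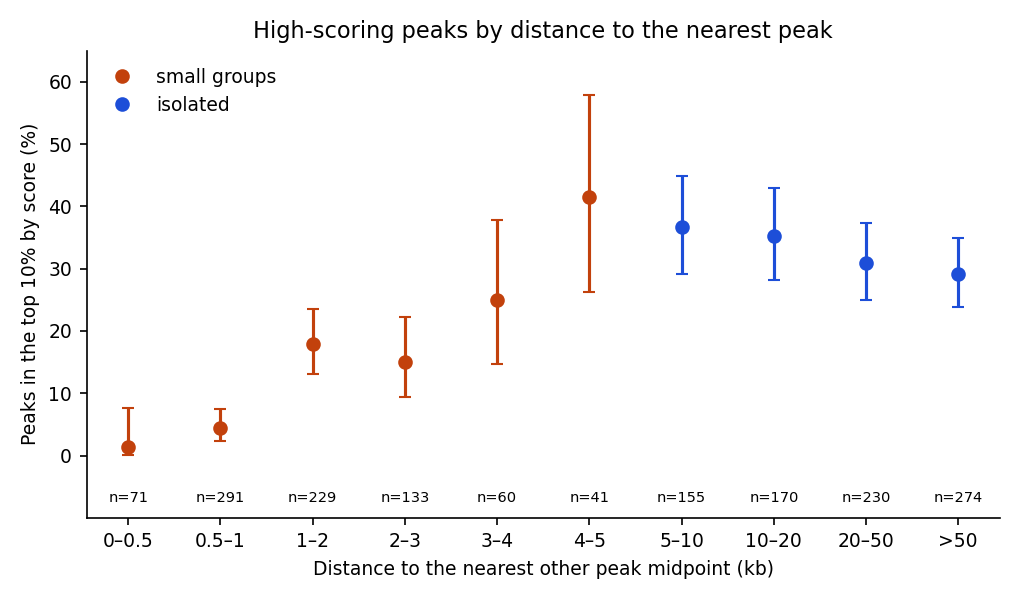
Share of peaks in the top 10% of the list (percent, with exact 95% binomial intervals) by distance to the nearest other midpoint (kb), for members of small groups and for isolated peaks. The share is 1.41% for members under 500 bp and 41.5% at 4000 to 5000 bp, close to the 36.8% of isolated peaks at 5000 to 10000 bp.

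Midpoint distance is tied to width, since wide peaks cannot have close midpoints and high-scoring members were wide. Measured by the gap between edges, the share was 8.10% up to 500 bp (29 of 358, interval 5.49 to 11.4%) and 14.5% from 500 to 1000 bp (23 of 159). It was 14.3% from 1000 to 2000 bp (20 of 140) and 17.0% from 2000 to 3000 bp (18 of 106). From 3000 to 5000 bp it was 27.4% (17 of 62, interval 16.9 to 40.2%). The direction was kept and the range was smaller. Median scores by gap followed no order and lay between 11.38 and 16.64. By midpoints, the share beyond 2000 bp against within 2000 bp was 20.9% against 7.68% on the large arms pooled. It was higher beyond 2000 bp on each of the 5 large arms, from 12.5% against 3.25% on 3L to 31.6% against 11.2% on X. On chromosome 4 it was 34.8% against 38.7% (8 of 23 and 12 of 31).

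At the limit of the rule, the members with the most distant neighbours were a pair on 2L 4963 bp apart. The peak at bases 10226995 to 10227195 scored 7.4 and that at bases 10231620 to 10232496 scored 29.17. Next came the 2L pair at 4954.5 bp described below. Just outside the limit, the isolated peaks with the nearest neighbours lay 5009 bp away on 3L (score 13.11), 5025.5 bp on 2L (16.05) and 5039.5 bp on 2R (14.3).

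Within groups, the highest peak is called the lead and the others companions; leads are higher by definition. The 79 leads in the top 10% had a median width of 768 bp. Their 117 companions scored a median of 18.78 (quartiles 13.9 and 46.39), or 18.2% of the lead's score at the median (interval 15.5 to 23.0%). Of these companions 27 were themselves high-scoring (23.1%, interval 15.8 to 31.8%). The 395 companions of lower leads scored a median of 10.34, or 71.3% of the lead (interval 69.2 to 74.5%). A companion of a high lead was thus much lower than its lead, yet above the companions of low leads, whose scores are capped by the lead. Companions of high leads lay a median of 2705 bp from the lead (quartiles 1325 and 4469 bp), and companions of low leads a median of 1719 bp.

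Scores of partners in a pair were related, though 41 of the 57 pairs with a high-scoring peak held only 1. Arms were pooled here, and their shares of high-scoring members differed. In the 173 pairs, 32 of the 73 high-scoring peaks had a high-scoring partner (43.8%), against 41 of the 273 other peaks (15.0%). The scores of the left and right peak had a Spearman's rho of 0.49 across the 173 pairs, given as a description because both peaks share a locus and the caller's local background. For the 69 pairs over 2000 bp apart, rho was 0.61, and 20 of 35 high-scoring peaks had a high-scoring partner (57.1%). For the 104 closer pairs, rho was 0.39, and the count was 12 of 38 (31.6%). This split uses midpoint distance, which is tied to width, and high-scoring members were wide. The contrast was not tested. The lower peak of a pair with both in the top 10% reached a median of 61.2% of the higher, and 13.4% where only 1 was in the top 10%.

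**Figure D4:**
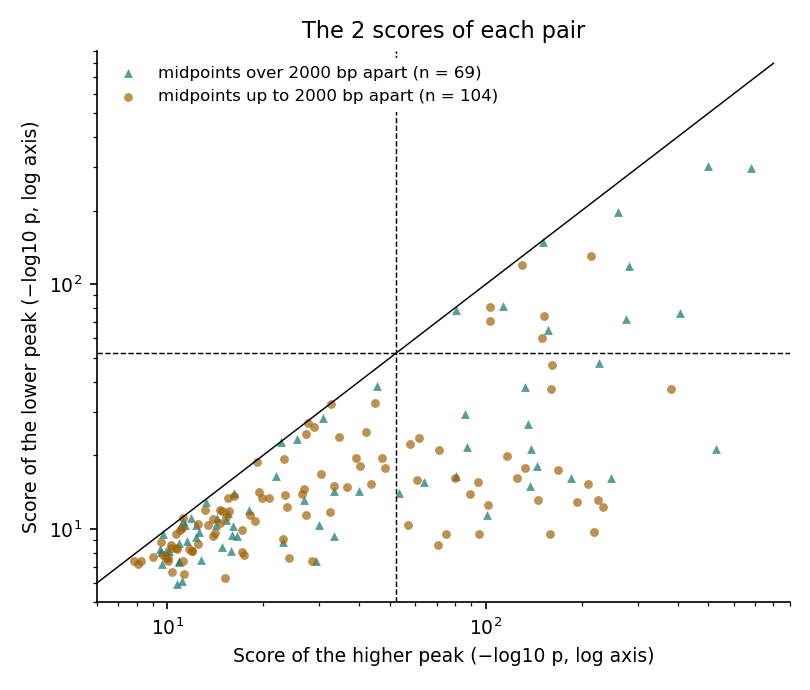
Score of the lower against the higher peak (−log10 p, log axes) for each of the 173 pairs, marked by the distance between midpoints; the diagonal marks equal scores and the dashed lines the top 10% of the list. Points at the upper right are the 16 pairs with both peaks in the top 10%, 10 of them over 2000 bp apart.

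Ranked by its single highest peak, the leading group of each arm was a pair, with midpoints 3808.5 to 4954.5 bp apart. On 2R, the highest peak of the whole list (678.18) had a partner at bases 15998497 to 15999150 that scored 299.89. Their midpoints were 4727 bp apart and their widths 632 and 654 bp, below the median of high-scoring members and above the upper quartile of all members. On 3R, the 1190-bp peak at bases 2733453 to 2734642 scored 527.28. Its partner at bases 2738575 to 2738928, 4704 bp away, scored only 21.21. On 2L, a 4150-bp peak at bases 5000827 to 5004976 scored 498.66 and a 1575-bp peak at bases 4997160 to 4998734 scored 305.16, so that the peaks covered 73.2% of the group.

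The other 3 arms had lower leading pairs. On chromosome 4, the peaks at bases 1047580 to 1048748 and 1051423 to 1052522 scored 281.69 and 118.32. On 3L, the peak at bases 6051703 to 6052933 scored 275.7 and its partner at bases 6047825 to 6048261 scored 71.86. On X, the peaks at bases 18682123 to 18682654 and 18677442 to 18677981 scored 260.45 and 196.68, with widths of 532 and 540 bp. In 5 of these 6 pairs both peaks were in the top 10%, and the pair on 3R was the exception.

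Groups with several high peaks were few. The group on 2R from base 6305411 to base 6318055 held 5 members with scores of 111.78, 189.76, 310.44, 321.08 and 29.17 in order along the arm. Its first 4 members were high-scoring, with midpoints 2170.5 to 4821 bp apart. On 3R, 3 peaks from base 2644766 to base 2648422 scored 157.77, 215.49 and 212.32, and this was the only group of 3 in which every member was high-scoring. A pair on chromosome 4 at bases 681081 to 682028 and 683448 to 684287 scored 149.16 and 151.3, the closest by the ratio of scores among pairs with both in the top 10%. The next closest by that ratio were pairs on X from bases 6479742 (78.09 and 80.41) and 11692518 (120.31 and 129.71), on chromosome 4 from base 150215 (102.83 and 80.41), and the X pair with 260.45.

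Of the 5 groups taken as having the most members, 3 held a high-scoring peak, among them the 2R group of 5 above. Ties among the 7 groups of 5 went to the highest summed scores, so this count favours high scores. Of the 7 groups of 5, 4 held no high-scoring peak, and 4 of all 10 groups of 5 or more held one. The largest group, 9 peaks over 15.5 kb of 2R from base 2230214, had no high-scoring member and scores of 10.34 to 33.29. Its peaks were 226 to 492 bp wide and covered 17.3% of it. Another, on X from base 21558981, held 6 peaks over 12.4 kb with scores of 7.4 to 12.48. A group of 7 on 2L from base 21559542 to base 21573521, beyond the left-out block, had its highest peaks at its ends. These scored 46.39 and 119.64, and the 5 between them scored 7.73 to 15.69. On chromosome 4, 5 peaks over 14.3 kb from base 74306 scored 14.6, 42.62, 24.87, 76.38 and 184.43 in order.

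**Figure D5:**
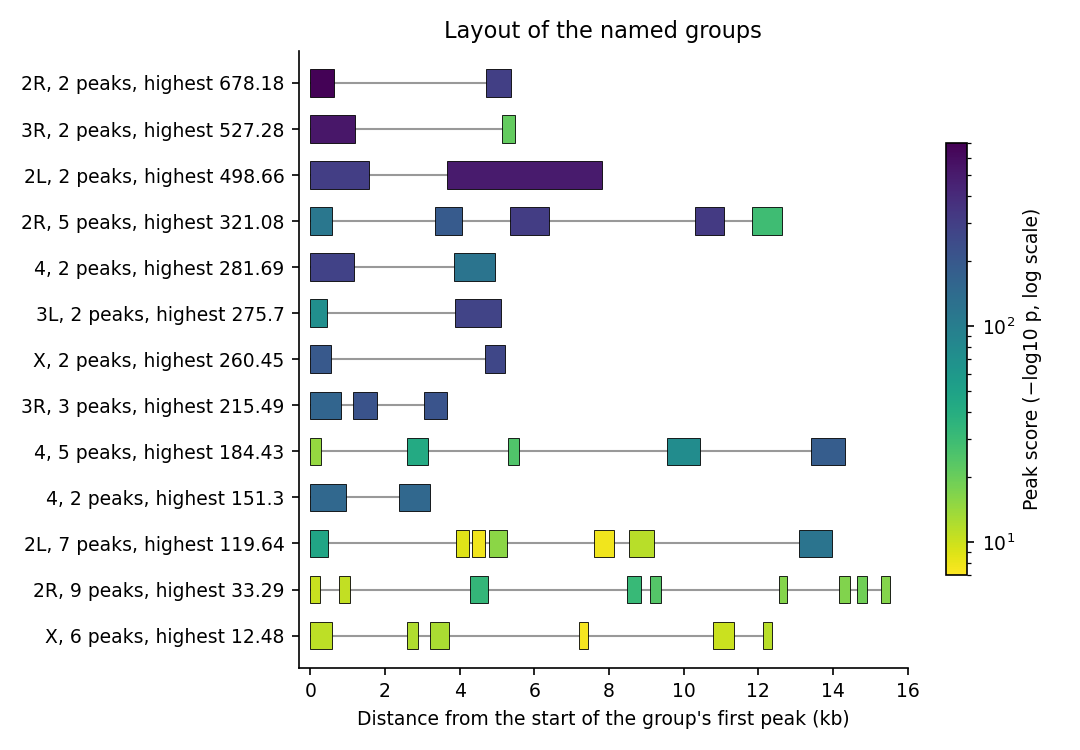
Layout of the named groups, one per row from the highest lead score to the lowest, as distance from the first peak's start (kb); boxes are peaks at their called widths, coloured by score (−log10 p, log scale). The leading pairs of the 6 arms show 2 separate peaks with midpoints 3808.5 to 4954.5 bp apart, while the 9-member group on 2R and the 6-member group on X hold no peak above 33.29.

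The 20 highest members came from 17 groups. By arm, 5 were on 2R, 5 on 3R, 3 on 3L, 3 on chromosome 4, 2 on 2L and 2 on X. The nearest neighbour lay over 2000 bp away for 14 of the 20, against 52 of the 107 high-scoring members and 234 of all 825. Those of the 20 not yet described were leads. On 3R, the lead at bases 17405291 to 17406261 scored 407.83 beside a companion of 76.58, the lead at bases 8889462 to 8890404 scored 381.4 beside one of 37.18, and the lead at bases 17445084 to 17445842 scored 247.95 beside one of 16.16. The 3L leads at bases 16374014 to 16375014 and 24020521 to 24021768 scored 267.2 and 218.68; the companion of the second scored 9.74, and a run lay within 5000 bp of it. On chromosome 4, leads from bases 887532 and 199832 scored 233.18 and 224.28 beside companions of 12.25 and 13.11. The X lead from base 15880695 scored 225.89 beside a companion of 47.83. On 2R, the lead from base 3901725 scored 219.34 and its 3 companions 15.61 to 40.08. In these 9 groups, 1 companion was high-scoring, and the others scored 9.74 to 47.83.

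Across arms, members made up 63.5% of the peaks of chromosome 4 (54 of 85, interval 52.4 to 73.7%). On the large arms the share ran from 25.7% on 3R (134 of 522, interval 22.0 to 29.6%) to 32.8% on 2L (150 of 457, interval 28.5 to 37.3%). It was 32.5% on 2R, 30.6% on 3L and 30.5% on X. The rule reads peak density, which was 67.4 peaks per Mb of span on chromosome 4 and 18.7 to 23.6 per Mb on the large arms. Its members had a median score of 28.38 (interval 19.8 to 56.82), against 12.48 on the large arms together (interval 11.97 to 13.1). Medians of the large arms ran from 11.86 on 3L to 13.11 on 2R. High-scoring members were 20 of 54 on chromosome 4 (37.0%, against 37.6% of all its peaks) and 87 of 771 on the large arms (11.3%, against 14.3% of all their peaks). They were scarcest on 3L, with 10 of 171 (5.85%), where the share of all peaks was also low at 9.32%. Among the large arms they were most frequent on X, with 25 of 154 (16.2%), near the 15.0% of all its peaks. Groups with a high-scoring member were 14 of 21 on chromosome 4 and 7 of 65 on 3L.

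The centromere-proximal 1 Mb of the spans of the 5 large arms held 116 of their 771 members (15.0%), against 9.02% of all their peaks. Members were 60.4% of the proximal peaks on 2L (29.6% of the rest of the arm), 63.0% on 2R (28.8%) and 57.7% on 3L (27.9%). They were 30.8% on 3R (25.3%) and 30.6% on X (30.5%). Proximal members were high-scoring in 13 of 116 cases (11.2%), and members elsewhere on those arms in 74 of 655 (11.3%). Median scores were 13.28 and 12.25. The higher shares of members near centromeres on 2L, 2R and 3L were not tested. The rule reads peak density, and these 1-Mb windows held 48, 54 and 52 peaks in that order. Their whole arms had 19.9, 23.6 and 22.7 peaks per Mb of span. The windows of 3R and X were also denser than their arms, with 39 and 36 peaks against 18.7 and 22.6 per Mb. Whether density accounts for the higher shares was not tested.

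Neighbourhoods of at least 4 high-scoring arm peaks linked across gaps of up to 30000 bp held 34 members, in 9 of the 10 neighbourhoods. Of these members 20 were high-scoring, against 107 of all 825, but the neighbourhoods were chosen for such peaks. The one on 2L consists mostly of the left-out block. On 3R from base 17405291 to base 17445842, 6 members in 3 pairs scored 407.83 and 76.58, 48.15 and 17.76, and 16.16 and 247.95. On X the pair from base 11029736 scored 213.11 and 130.38. Of the other neighbourhoods, those on 2R from base 1540201 and on X from base 15784018 held 1 member each, with scores of 138.63 and 85.7. The 2 on chromosome 4 held 4 members with scores of 10.34 to 281.69, and 6 with scores of 11.69 to 101.58.

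The rule assigns any peak within a gap of 2000 bp of a run to that run, so members could lie beside runs only across wider gaps. A run peak lay within 5000 bp of 12 members, with scores of 7.31 to 218.68 and a median of 11.04; 2 of them were high-scoring. No member lay within 5000 bp of a peak of the left-out 2L block.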

How the data were processed

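The 1 deposited peak list of the series, which has 2 GFP ChIP and 2 input libraries, was used. The submitters' processing notes name CASAVA (versions 1.7.0.2 and 1.7.0.3), BWA, MACS2 and the build BDGP5, with neither roles nor settings. Peak positions are on FlyBase release 5 and each entry credits MACS, per the file headers. Not given in the sources used here: whether replicates were pooled, and the calling threshold. The deposited score carries no stated unit and was read as −log10 p: 3875 of 7683 scores (50.4%) equalled, to 2 decimals, a Poisson upper tail at a background rate of 80.06, the best of the rates from 20 to 400 in steps of 0.01. Scores are the authors' values and were compared only within this list.

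Computed here, with Python 3.11.15, numpy 2.4.6, pandas 2.3.3 and scipy 1.17.1, were classes of arm peaks, groups of members, midpoint distances, medians with exact order-statistic 95% intervals, and shares with exact (Clopper-Pearson) 95% intervals. No test over peaks was run, since peaks are not replicates. The classification was tested on simulated lists of known structure. The members, classes and rules for named peaks were chosen with earlier results of these data known. Named peaks were the 20 highest members, the group of each arm with the highest peak, the 5 largest groups, the 5 groups with the highest lowest score, the 5 pairs with both in the top 10% whose lower score was nearest to the higher by ratio, members in neighbourhoods of high-scoring peaks, and the extremes of width and of the distance limit. Ties in group size were broken by the highest summed score. The lowest-scoring member was named after its value was seen. Read depth is unknown.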

Additional observations from a re-analysis of the deposited data

How the results depend on the processing

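Of 124 recomputed values, 92 stayed within the interval of the reported value or, for numbers of peaks or groups, within 1.5 times of it, 32 moved, and none had a sign to reverse. The 48 values with 1 arm left out all stayed, as did those with edge-to-edge distances and those without members near a run. Those settings gave 654 to 771, 840 and 813 members, against 825. They share most of their peaks with the main list, so their staying says little. A pair of values was added after seeing the data: the median score was 12.25 without chromosome 4 and the proximal 1 Mb, and 20.8% of members with gaps over 2000 bp were high-scoring, against 22.2% by midpoints; both stayed. A neighbour distance of 2000 bp gave 9.31% high-scoring members, 66.9% pairs, a spacing of 875 bp and companions at 70.3% of the lead. At 20000 bp these were 19.5%, 48.8%, 2268 bp and 52.1%, and the median score was 14.6. With runs of at least 4 peaks, pairs were 61.3% of groups. With runs of at least 10, there were 1522 members, 7.36% of them high-scoring, with 42.8% pairs, a spacing of 1128 bp, companions at 46.3% and a width of 393 bp. Run gaps of up to 1000 bp gave 8.85% high-scoring members, 46.0% pairs and companions at 58.3%. The top 50% of peaks gave 206 groups, a median score of 20.41, 16.7% high-scoring members, a spacing of 1743 bp, companions at 47.0% and a width of 569 bp. Merging peaks within 1000 bp gave a median score of 14.56, 86.5% pairs, a spacing of 2873 bp, companions at 61.2% and a width of 718 bp. Bins of 200 bp moved the start of the fullest bin from 500 to 600 bp, and proximal windows of 2 Mb held 22.2% of members. Apart from the bins and the proximal window, these settings change by construction which peaks are members. No paired analysis was possible because peaks carry no values of single libraries, and replicates could not be left out for the same reason.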

Other observations

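High-scoring links could also be counted by distance between consecutive members. Both peaks were in the top 10% for 1 of 198 links of up to 1000 bp, 8 of 148 between 1000 and 2000 bp, 5 of 94 between 2000 and 3000 bp, 5 of 43 between 3000 and 4000 bp, and 5 of 29 between 4000 and 5000 bp. Pairs with both peaks in the top 10% had midpoints 1082 to 4954.5 bp apart, with the shortest distance in a pair on X that scored 129.71 and 120.31. These differences were not tested.

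Members were also counted at the ends of the arm spans. In the first 100 kb of the span of chromosome 4, 9 of 14 peaks were members, against 54 of 85 over its whole span, and 5 of the 9 were high-scoring, against 20 of 54. The last 100 kb held 11 peaks, 4 of them members. On 3R and X, neither end held a member within 100 kb. The last 100 kb of 2L held 4 peaks, all of them members, with a highest score of 87.48.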
